A study of Mus musculus with 3 samples.

Results

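The forkhead genes encode transcription factors that share a winged-helix DNA-binding domain, and 33 of them were followed across a pairwise comparison of early mouse kidney tissue. Members were all genes whose symbol is Fox, a letter from a to s and a number, with Foxd1 left out, that had a ratio on each of the 3 arrays of the series. They were 33 of the 14047 genes measured on all arrays, and 39 probes carried them. Other genes of the family were not analysed as members, and Foxd1 was counted only in the list of renal stroma markers.

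The tissue came from embryos of the outbred CD1 mouse strain, as a pool of both sexes, with no genetic change or treatment named. On each array, channel 1 held metanephric mesenchyme dissected at 10.5 days post coitum (dpc), and channel 2 held metanephroi of 11.5 dpc. Arrays 1 and 2 had the dye order red/green and array 3 had green/red. A metanephros of the later stage holds the ureteric bud as well as mesenchyme, so stage and cell makeup change together in this design. The labels do not say which channel is the numerator of the deposited ratio. Positive and negative log2 ratios thus mark the sides of the comparison, and neither side is assigned to a tissue here. Fewer cells of a type and less RNA per cell cannot be told apart in such tissue.

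Forkhead factors of class A open chromatin in gut, liver and lung endoderm, and those of classes C and F act in mesoderm and in the mesenchyme around epithelia. In the developing kidney, Foxc1 and Foxc2 help to limit where the ureteric bud forms and later serve in the glomerulus. Class O factors are kept out of the nucleus by AKT kinases, Foxm1 drives genes of mitosis, and Foxj1 is the main regulator of motile cilia.

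The upstream sequences of Foxc1, Foxf2, Foxa3 and Foxi1 are shown because these 4 genes, together with Foxc2, had the smallest unadjusted p of the family by limma's moderated test. They are the 250 bases before the RefSeq start in build GRCm38.p6, read 5′ to 3′ on the strand of the gene. Capitals mark, on either strand, the GC box with the letters GGGCGG, the box named CCAAT after its letters, and the TATA box, searched as TATAAA.
Foxc1: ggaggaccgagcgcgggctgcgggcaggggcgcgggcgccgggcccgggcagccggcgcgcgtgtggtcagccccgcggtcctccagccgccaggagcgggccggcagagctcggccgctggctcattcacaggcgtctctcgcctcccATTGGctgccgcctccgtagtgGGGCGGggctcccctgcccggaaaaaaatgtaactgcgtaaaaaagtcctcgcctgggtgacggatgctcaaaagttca
Foxf2: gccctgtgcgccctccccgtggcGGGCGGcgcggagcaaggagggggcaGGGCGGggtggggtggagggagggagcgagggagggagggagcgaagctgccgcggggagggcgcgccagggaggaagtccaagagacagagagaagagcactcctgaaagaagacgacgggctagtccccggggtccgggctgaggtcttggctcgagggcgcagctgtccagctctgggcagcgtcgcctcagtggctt
Foxa3: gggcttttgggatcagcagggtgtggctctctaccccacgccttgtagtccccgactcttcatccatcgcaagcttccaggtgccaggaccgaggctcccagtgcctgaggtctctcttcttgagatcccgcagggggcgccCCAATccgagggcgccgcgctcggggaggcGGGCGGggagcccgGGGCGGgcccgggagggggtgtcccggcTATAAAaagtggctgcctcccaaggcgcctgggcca
Foxi1: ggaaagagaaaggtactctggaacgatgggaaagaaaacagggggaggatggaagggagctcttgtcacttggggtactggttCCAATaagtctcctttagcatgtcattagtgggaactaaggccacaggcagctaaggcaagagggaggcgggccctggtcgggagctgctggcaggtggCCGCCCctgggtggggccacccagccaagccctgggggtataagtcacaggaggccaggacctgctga
The Foxc1 window lay at chr13:31806396-31806645 on the + strand and had 1 GC box and 1 CCAAT box. The Foxf2 window, at chr13:31625566-31625815 on the + strand, had 2 GC boxes. The Foxa3 window, at chr7:19023540-19023789 on the - strand, had 2 GC boxes, 1 CCAAT box and 1 TATA box, the latter beginning 36 bases before the start. The Foxi1 window, at chr11:34208090-34208339 on the - strand, had 1 GC box and 1 CCAAT box. GC content was 70.8% for Foxc1, 71.6% for Foxf2, 68.8% for Foxa3 and 58.8% for Foxi1, against a median of 52.4% over 32851 windows of all genes. Foxi1 also had fewer CpG pairs, 4 against 29 for Foxc1, 21 for Foxf2 and 18 for Foxa3. Of the 27 windows available for 22 of the members, 18 (66.7%) held a GC box, as did 32.7% of all windows. A forkhead core motif (TGTTTA, or TAAACA on the other strand) was in 5 of the 27, or 18.5%. Those windows came from only 3 of the 22 genes, and 12.0% of all windows held the motif. The 4 windows shown held none, which says only that these letters are not in those 250 bases. The CCAAT box was in 44.4% of the members' windows and 33.8% of all, and the TATA box in 11.1% and 12.4%. TATAAA and TAAACA can share bases where they follow each other, and each motif was counted on its own.

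Across the family, most means lay near 0 while single arrays reached far. The mean log2 ratio ran from -1.33 for Foxs1 to 0.94 for Foxc2, with 14 means above 0 and 19 below. The median of the means was -0.04, beside 0.00 (-0.0019) over all genes, and 18 of the 33 means lay within 0.2 of 0. In size, the median mean was 0.16 for the family and 0.31 for all genes, while the median SD over the arrays was 0.32 and 0.34. A mean of at least 0.5 in size was found for 9 members, 27.3% beside 29.8% of all genes, and 11 members, 33.3% beside 30.1%, had at least 1 array past 1 in size. By limma, 0 of the 33 genes passed an adjusted p of 0.05, where 0.0% of all genes did. The smallest adjusted p among them was 0.153, and 0.149 over all genes. At an unadjusted p under 0.05, 5 forkhead genes were counted, which is 15.2%, beside 19.6% (2750) of all genes. The positive ones were 2, at a background of 9.89%, and the negative ones were 3, at a background of 9.69%. These shares lie under the background, so the family as a whole did not stand out. An exact sign-flip test over 3 arrays cannot give a two-sided p below 0.25.

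**Figure D1:**
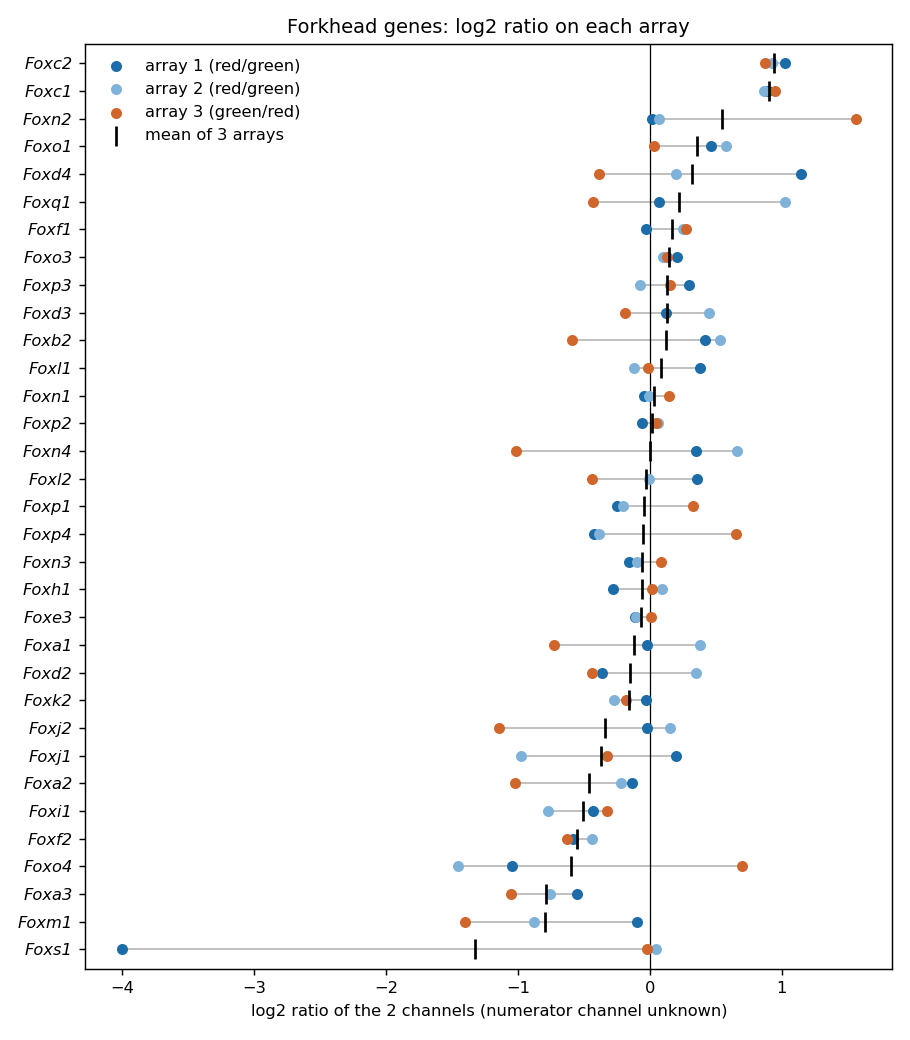
Log2 ratio of the 2 channels (x axis) for each of the 33 forkhead genes (y axis, ordered by mean) on array 1, array 2 and array 3. Each point is an array, the black tick is the mean of the 3 arrays and the grey line spans the arrays. The points of Foxc1 and Foxc2 lie close together between 0.86 and 1.03, and the point of Foxs1 on array 1 lies at -4.00.

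Foxc1 and Foxc2 had the most positive means among the members. These paralogs regulate paraxial versus intermediate mesoderm fate. Foxc1 had log2 ratios of 0.89 on array 1, 0.86 on array 2 and 0.95 on array 3. Foxc2 had 1.03, 0.92 and 0.87 on the same arrays. All 6 values were positive, whichever the dye order, and the ranges of both genes overlapped. The means were 0.90 ± 0.04 (SD, n = 3) for Foxc1 and 0.94 ± 0.08 for Foxc2, which as ratios are 1.87-fold and 1.92-fold. By limma, Foxc1 had an unadjusted p of 0.00297 and an adjusted p of 0.153, and Foxc2 had 0.00275 and 0.153. Of all genes, 1.48% had an SD as low as that of Foxc1 and 5.67% one as low as that of Foxc2. By unadjusted p they took places 273 and 251 of 14047.

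Most renal stroma markers lay on the side of the Foxc genes. Of 13 measured, 8 were positive and 1 was negative at an unadjusted p under 0.05 by limma. Of all genes, 9.89% were positive and 9.69% negative by that rule. Foxd1, which was left out of the members, was among the positive markers. The list mean was 0.42 to 0.64 on the arrays. The negative marker, Dlk1 at -2.46 ± 0.13, had the smallest unadjusted p of the list, and Tcf21 had 1.47 ± 0.17. Of 13 measured markers of metanephric mesenchyme, 3 were positive and 0 negative by that rule, with list means of 0.16 to 0.36. Of their means, 7 were above 0 and 6 below, with Crym at 1.91 ± 0.10 and Wt1 at 1.75 ± 0.04. The part of these markers in the Foxc values was not tested.

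The neighbours of the Foxc genes had other values. In RefSeq's gene order, Foxq1, Foxf2 and Foxc1 follow each other with no coding gene between them. Foxc2 lies between Foxf1 and Foxl1, with 1 coding gene between Foxf1 and Foxc2. Foxf2, a gene of palate and gut mesenchyme, had -0.58, -0.44 and -0.63, a mean of -0.55 ± 0.10. Every Foxf2 value was negative and every value of the adjacent Foxc1 was positive. Foxf2 had an unadjusted p of 0.0178 and an adjusted p of 0.182 by limma. Leaving out any 1 array took its unadjusted p past 0.05, to between 0.0519 and 0.112. Foxf1, which hedgehog signals switch on in lung and gut mesenchyme, had -0.03, 0.25 and 0.27. Foxl1, a factor of the mesenchyme under the gut epithelium, had 0.38, -0.12 and -0.02. Both stayed below the range of Foxc2 on every array, and each had arrays on both sides of 0. Foxq1 had 0.07, 1.02 and -0.43. The ovarian factor gene Foxl2, which is not a neighbour of the Foxc genes, had 0.35, -0.01 and -0.44. The arrays of these genes lay on both sides of 0. The differences between neighbouring genes were not tested.

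Class A genes had means below 0, most clearly for Foxa3. Foxa3, an activator of liver genes, had -0.55, -0.76 and -1.06, a mean of -0.79 ± 0.25, or 1.73-fold. All arrays were negative. Its unadjusted p was 0.0108 and its adjusted p 0.169 by limma. Foxa2, which acts in endoderm, node and floor plate, had -0.14, -0.22 and -1.02. The mean was -0.46 ± 0.49 with an unadjusted p of 0.136, and array 3 was far lower than the others. Foxa1, its close relative in endoderm, had -0.02, 0.38 and -0.73, on both sides of 0. Foxb2 had 0.42, 0.53 and -0.59, positive on the red/green arrays and negative on the green/red one.

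Most markers of gut, liver and yolk sac lay on the same side as Foxa3, with 10 means below 0 and 5 above. Of 15 measured, 7 were negative and 1 was positive at an unadjusted p under 0.05 by limma, where 9.69% of all genes were negative and 9.89% positive. The list mean was -0.76, -0.42 and -0.54 on arrays 1 to 3. The part of these markers in the Foxa3 value was not tested. The list of Foxa partners and endodermal targets shares 10 measured genes with those markers. It had 5 negative and 1 positive of 17 at that p, and a median of -0.18. The yolk sac and liver protein gene Afp had a mean of -1.68 ± 0.07, Apoa1 had -1.58 ± 0.10, the thyroxine carrier gene Ttr had -1.13 ± 0.15 and the tight junction gene Cldn6 had -1.01 ± 0.14. Other genes went the other way, as 7 means of this list lay above 0 and 10 below. Cdx2 had 0.52, Hnf4a 0.44 and Alb 0.36. None of the 17 passed adjustment over all genes.

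In classes I, J and M all 4 means were negative. Foxi1, the regulator of intercalated cells of the kidney's collecting duct, had -0.43, -0.78 and -0.32. Its mean was -0.51 ± 0.24, with an unadjusted p of 0.0388 and an adjusted p of 0.23 by limma. Without array 1 the unadjusted p was 0.133, without array 2 it was 0.153 and without array 3 it was 0.0523. Foxm1 had -0.10, -0.88 and -1.40. All 3 arrays were negative, but they spread from near 0 to the lowest value of the family on array 3, and the mean of -0.79 ± 0.65 had an unadjusted p of 0.0627. Without array 1 the mean was -1.14 with an unadjusted p of 0.0257. Foxj1 had 0.20, -0.98 and -0.33, and Foxj2 had -0.02, 0.15 and -1.14. Neither kept to 1 side of 0.

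Target genes of Foxm1 leaned to its side. Of 23 measured, 7 were negative and 0 positive at an unadjusted p under 0.05, which is 30.4%, where 9.69% of all genes were negative by that rule. None passed adjustment over all genes, and the list median was -0.20. The list mean was -0.23, -0.09 and -0.51 on arrays 1 to 3. It was lowest on array 3, as Foxm1 was, but arrays 1 and 2 had the reverse order to that of Foxm1. The cell cycle transcription factor gene Mybl2 had -1.30 ± 0.23, the centromere protein gene Cenpb -1.19 ± 0.19, the cyclin gene Ccna2 -0.93 ± 0.07 and the spindle factor gene Tpx2 -0.70 ± 0.16. Motile cilium genes, the programme of Foxj1, had 2 negative and 0 positive of 14, or 14.3%, with a median of 0.12. Tppp3 had -0.62 ± 0.29 and the radial spoke gene Rsph9 -0.49 ± 0.17 on the negative side. The central-pair gene Hydin had 1.13 ± 0.94 and the tektin gene Tekt2 -0.31 ± 0.06, neither of which passed.

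Class O genes split by sign. Foxo1, a target of insulin and AKT signalling, had 0.46, 0.57 and 0.03, a mean of 0.36 ± 0.29 with an unadjusted p of 0.12. Foxo3, a relative of like function, had 0.20, 0.10 and 0.13. Both were positive on all arrays, with Foxo3 nearer 0, but the Foxo3 value averages a probe with a mean of -0.26 and a probe with 0.54, so its sign turns with the probe used. Foxo4 had -1.04, -1.45 and 0.70. By the mean of the red/green arrays only Foxs1 was more negative, yet the green/red array was positive. The mean of -0.60 ± 1.14 had an unadjusted p of 0.295. With array 3 turned the other way Foxo4 had -1.06 and an unadjusted p of 0.0105 by limma. The turn by itself gives its 3 arrays 1 sign, so it is no test of Foxo4.

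Of 34 measured genes of Foxo regulation and Foxo targets, 2 were positive and 6 negative at an unadjusted p under 0.05 by limma. This is 23.5%, beside 19.6% of all genes, and none passed adjustment over all genes. The list median was 0.07, and its mean was -0.08, 0.07 and 0.02 on the arrays. The death gene Bcl2l11, a Foxo target, had 0.78 ± 0.12. On the negative side were the kinase genes Akt2 at -0.94 ± 0.29 and Sgk1 at -0.65 ± 0.08, whose products phosphorylate Foxo proteins, and Ywhab, which encodes a 14-3-3 protein that binds them, at -0.60 ± 0.10.

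Class P genes, which encode repressors that pair with one another, lay near 0. Foxp1 had -0.25, -0.21 and 0.33. Foxp2, known from brain and lung, had -0.06, 0.06 and 0.05, the tightest spread of the class. Foxp3, the regulator of regulatory T cells, had 0.30, -0.07 and 0.15. Foxp4 had -0.42, -0.39 and 0.65. None of the 4 kept 1 sign. Of 15 corepressors and partners of Foxp and Foxk proteins, 2 were positive and 2 negative at an unadjusted p under 0.05 by limma. This is 26.7%, beside 19.6% of all genes, and the list median was 0.22. The histone binding gene Rbbp7 had -0.47 ± 0.13, the nucleosome remodelling gene Gatad2a -0.44 ± 0.12, the histone deacetylase gene Hdac2 0.43 ± 0.10 and the corepressor gene Ctbp2 0.41 ± 0.12.

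In classes D, E and H no gene had 1 sign on all arrays. Foxd2, which is made in kidney mesenchyme, had -0.36, 0.35 and -0.44, and Foxd3, a factor of neural crest and embryonic stem cells, had 0.12, 0.45 and -0.19. Foxd4 had 1.15, 0.20 and -0.38. The lens gene Foxe3 had -0.11, -0.10 and 0.01, and Foxh1, a partner of Smad proteins in Nodal signalling, had -0.28, 0.09 and 0.01. The 5 means lay between -0.15 and 0.32.

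Among classes K and N, Foxn2 and Foxn4 had wide gaps between array 3 and the other arrays. The ratios of Foxn2 were 0.01, 0.07 and 1.56, so the mean of 0.55 ± 0.88 rested on array 3. The retinal gene Foxn4 had 0.35, 0.66 and -1.01. The thymus gene Foxn1 had -0.05, -0.01 and 0.15, Foxn3 had -0.16, -0.10 and 0.08, and Foxk2 had -0.03, -0.27 and -0.18. These 3 genes stayed within 0.2 of 0 in the mean. Foxs1, a gene of pericytes and sensory neurons, had -4.00 on array 1, 0.05 on array 2 and -0.02 on array 3. Its lowest mean of the family, -1.33 ± 2.32, thus rested on 1 array, and without array 1 the mean was 0.01.

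Array 3 was the only array of the green/red order, so dye order and that array cannot be told apart. The 3 arrays shared a sign in 11 of 33 members, 5 positive and 6 negative, or 33.3%, where 45.5% of all genes did. In another 11 members, also 33.3%, arrays 1 and 2 shared a sign and array 3 had the other, beside 25.6% of all genes. In the last 11 members arrays 1 and 2 themselves differed. Across the members, which are not independent replicates and share each array's RNA, labelling and normalization, the red/green arrays had a Spearman correlation of 0.611. Array 3 had one of 0.0759 with array 1 and of 0.0745 with array 2. Over all genes these 3 correlations were 0.501, 0.258 and 0.208. Turning array 3 the other way changed the sign of 11 of the 33 means. It left 0 of the 5 genes at an unadjusted p under 0.05 by limma, although those 5 kept their sign. Both outcomes follow from their like values on the 3 arrays, so the turn is no test of these genes. With array 3 turned, Foxc1 had 0.27, Foxc2 0.36, Foxa3 -0.09, Foxf2 -0.13 and Foxi1 -0.30. With a term for dye order in the fit, array 3 was fitted exactly, as the only array of its order. The error then came from arrays 1 and 2 alone. In the mean, array 3 counted as much as both of those together. Means in this fit were 0.91 for Foxc1, 0.92 for Foxc2, -0.86 for Foxa3, -0.57 for Foxf2 and -0.46 for Foxi1. Among the other members, Foxn2 had 0.80, Foxa2 -0.60, Foxj2 -0.54 and Foxm1 -0.94. The sign of 3 means turned in this fit, to -0.06 for Foxb2, 0.05 for Foxp1 and 0.12 for Foxp4.

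**Figure D2:**
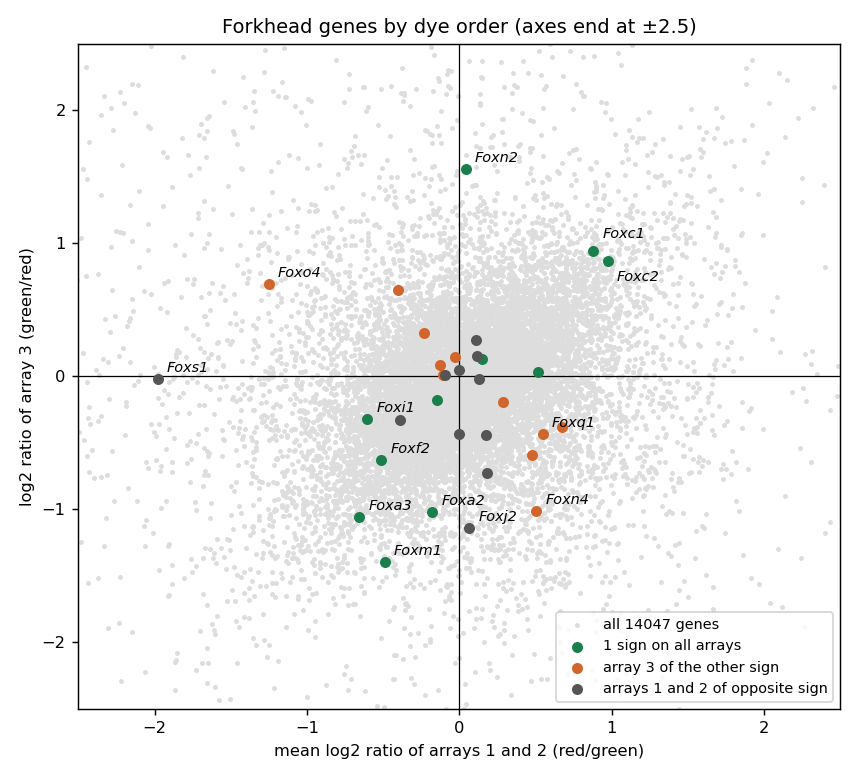
Mean log2 ratio of arrays 1 and 2, labelled red/green (x axis), against the log2 ratio of array 3, labelled green/red (y axis). Grey points are all genes measured on 3 arrays, of which those past the axes are not drawn, and coloured points are the 33 forkhead genes, by whether the arrays shared a sign. Foxc1 and Foxc2 lie upper right and Foxa3, Foxf2, Foxi1 and Foxm1 lower left, while Foxo4 and Foxn4 lie in the other quadrants.

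Of the 33 members, 28 had 1 probe and 5 had several, and the probes of a gene often differed. Foxo3 had a probe that was negative on every array, at -0.20, -0.08 and -0.49, and a probe that was positive on every array, at 0.61, 0.27 and 0.75. The probe numbered 3 had no value on array 2 and stayed out of the mean, with 0.59 on array 1 and 0.38 on array 3. With that probe included, the mean of Foxo3 was 0.21 in place of 0.14. The first probe of Foxa2 was negative on every array, at -0.64, -0.41 and -1.44, with an unadjusted p of 0.0373 by limma in a fit of each probe, while the other had 0.37, -0.03 and -0.61. Foxq1 had 0.82, 1.94 and -0.52 on 1 probe and -0.68, 0.11 and -0.35 on the other. Foxp4 had -0.78, -0.53 and 1.92 on 1 probe and -0.07, -0.25 and -0.62 on the other. Both Foxa1 probes had means below 0, at -0.07 and -0.18, but differed in sign on arrays 1 and 2. Probe means of both signs were thus found for 3 of the 5 genes, Foxo3, Foxp4 and Foxq1.

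**Figure D3:**
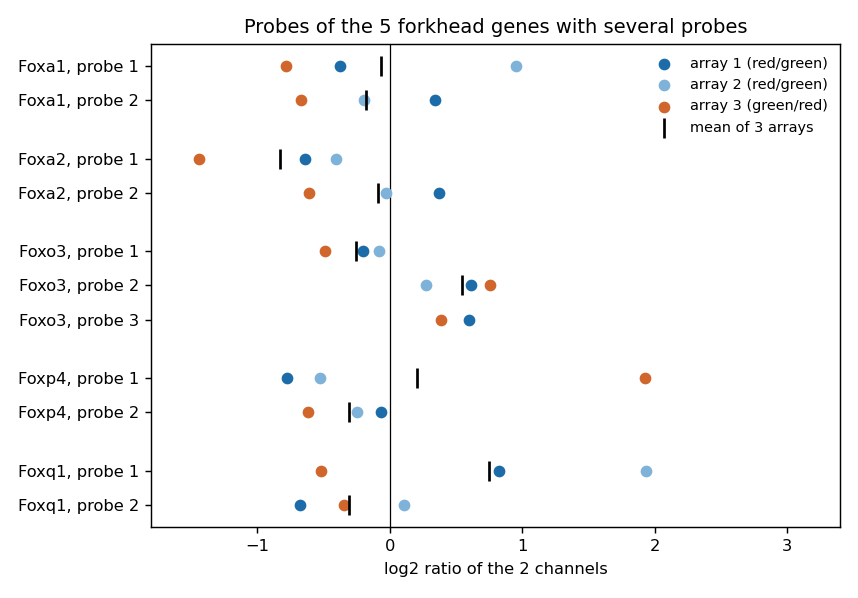
Log2 ratio of the 2 channels (x axis) for each probe (y axis) of Foxa1, Foxa2, Foxo3, Foxp4 and Foxq1. Points are arrays and black ticks are means of 3 arrays; the Foxo3 probe numbered 3 has 2 values and no tick. The probes of Foxo3 fall on opposite sides of 0.

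Genes that work with Foxc1 and Foxc2 in kidney and mesoderm did not share their values as a list. Of 23 measured, 2 were positive and 1 negative at an unadjusted p under 0.05, or 13.0%, below the 19.6% of all genes. Its median was 0.09, while its mean was below 0 on each array, from -0.10 to -0.01. The guidance gene Slit2, whose loss like that of Foxc1 widens the Gdnf domain, had 0.63 ± 0.17, and the stromal factor gene Tbx18 had 0.86 ± 0.38. With array 3 turned, Tbx18 had -0.01. The ureteric bud receptor gene Ret had -0.43 ± 0.11, and the feedback inhibitor gene Spry1 had -0.44 ± 0.23 without passing. In the hedgehog and mesenchyme list of Foxf and Foxl genes, 1 was positive and 3 were negative of 19, or 21.1%, with a median of -0.22. The stomach mesenchyme gene Barx1 had 0.75 ± 0.06. On the negative side were the ligand genes Wnt2 at -1.73 ± 0.87 and Bmp2 at -0.48 ± 0.19 and the hedgehog receptor gene Ptch1 at -0.77 ± 0.54. By limma, adjusted p stayed above 0.05 for each of them.

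**Figure D4:**
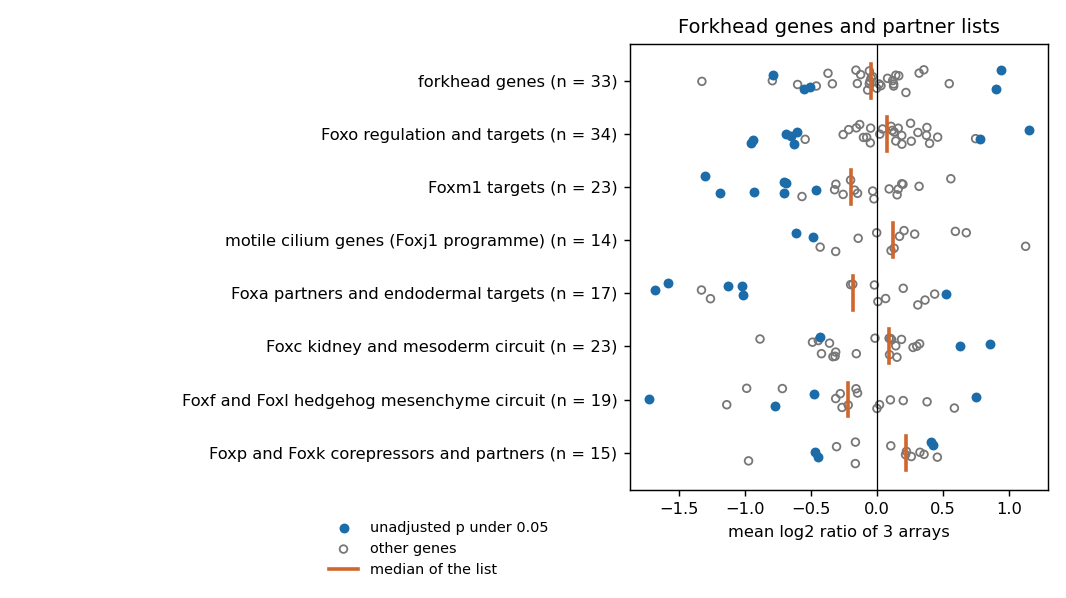
Mean log2 ratio of 3 arrays (x axis) for the 33 forkhead genes and for the measured genes of 7 lists of partners and targets (y axis). Filled points have an unadjusted p under 0.05, open points are the other genes, and the bar is the median of the list. All 7 filled points among the Foxm1 targets lie below 0.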

How the data were processed

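RNA was amplified, labelled with amino allyl dyes and hybridised in 2 colours to 3 arrays of a Compugen mouse oligonucleotide design, per the labels. Per the labels, the authors read the spots with Imagene 5.5, normalized by print-tip lowess and between arrays, fitted lowess over 20% of the data and set control values under 10 to 10. Each deposited value is a log2 ratio between the channels and was used as the authors normalized it. Intensities were not analysed here, so no level or background is known. Precision is limited by the number of arrays. No build of the array design is named in those labels.

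Probes with 1 gene symbol in the platform annotation and a value on all 3 arrays were averaged per gene, and control spots were left out. A two-sided limma test (version 3.58.1, lmFit with eBayes, in R 4.3.3) set the mean of all 14047 genes against 0, with Benjamini-Hochberg adjustment. The fit was tested on simulated data. Summaries and plots used Python 3.11.15 and Matplotlib 3.10.9. The labels do not say whether the arrays came from separate dissections, so p-values measure only the spread between arrays, which may be technical. Array 3 was taken as already turned to the direction of the others, which the labels do not state. The markers Wt1, at 1.78, 1.70 and 1.76, and Zic1, at -3.43, -3.21 and -3.76, had 1 sign on all arrays. They were named for a small unadjusted p by limma, which favours genes of 1 sign, so they do not test the direction. Of all genes, 45.5% had 1 sign on all arrays and 25.6% had array 3 apart. Alternatives tried were a turned array 3, a dye term, centring on the median, a common median absolute deviation and genes seen on at least 2 arrays. Others were unmoderated variances, array weights, other ways of joining probes and each array left out.

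The members, the partner lists and the marker lists were chosen with earlier results of these data known. Every member is named, and of each partner list the 4 genes and of each marker list up to 3 genes of smallest unadjusted p. Sequences are RefSeq's, from GRCm38.p6, and 22 of the 33 members matched.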

Additional observations from a re-analysis of the deposited data

How the results depend on the processing

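The count of genes past an adjusted p of 0.05 by limma was 0 in the main setting and under every alternative run, with 779 to 3979 genes at an unadjusted p under 0.05. The 5 forkhead genes at an unadjusted p under 0.05 became 2 with array 3 turned the other way, where 5.55% of all genes were counted. These were Foxo4 and Foxn4, 0 shared with the 5. Turning 1 of 3 like values can by itself remove a gene, and can add one whose array 3 differed in sign. Under a dye term array 3 was fitted exactly, so no count of forkhead genes is given for that fit. With 1 array left out, forkhead genes past that p were 4 without array 1, 3 without array 2 and 5 without array 3. Of all genes, 8.23%, 10.3% and 21.0% were counted there. Forkhead genes of 1 sign on all arrays kept numbered 17 without array 1, 16 without array 2 and 22 without array 3, where fewer arrays have to share the sign, against 11 with all arrays. Of all genes 59.0%, 60.9% and 71.1% did so. The family median stayed between -0.06 and 0.02 under all alternatives. Foxc1 and Foxc2 stayed past an unadjusted p of 0.05 in 11 of 12 alternatives and Foxa3 in 11 of 12, the exception being array 3 turned the other way. Foxf2 did so in 8 and Foxi1 in 6 of 12, with the dye term among the alternatives. Adjusted p ran from 0.0807 to 0.949 for Foxc1 and from 0.0784 to 0.944 for Foxc2. The cause of these changes was not tested. Averaging in probes without a value on an array was chosen after seeing the data.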

Other observations

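Markers of other tissues near the early kidney differed in how they lay beside the forkhead genes. Of all genes, 9.69% were negative and 9.89% positive at an unadjusted p under 0.05 by limma. At an unadjusted p under 0.05 by limma, 6 of 12 limb bud and flank genes were negative and 0 positive, led by the homeodomain genes Pitx1 at -1.95 ± 0.35, Msx1 at -1.44 ± 0.43 and Prrx1 at -1.14 ± 0.38. Of 16 somite, sclerotome and muscle genes, 5 were negative and 1 positive, with the skeletal actin gene Acta1 at -4.96 ± 0.92. Endothelial genes had 5 negative and 0 positive of 16, among them Cd34 at -1.01 ± 0.07 and Cldn5 at -1.12 ± 0.31. Neural genes had 3 negative and 1 positive of 14, with Zic1 at -3.47 ± 0.28 and the migrating neuron gene Dcx at 1.40 ± 0.29. Erythroid genes had 1 negative of 9, the transcription factor gene Klf1 at -1.10 ± 0.14. Of 12 gonad, mesonephros and adrenal genes 1 was negative, the cholesterol carrier gene Star at -0.93 ± 0.61. The erythroid list at 11.1% and the gonad list at 8.33% lay under the 19.6% of all genes past that p in either sign. Of the gonad means, however, 12 lay below 0 and 0 above, and of the erythroid means 6 below and 3 above.

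Macrophage genes lay on the other side, with 4 positive and 0 negative of 8, among them Tyrobp at 0.70 ± 0.17 and Lyz2 at 0.81 ± 0.27. Of 14 ureteric bud and nephric duct genes, 2 were positive and 4 negative. The cadherin gene Cdh16 had 2.08 ± 0.30 and the calcium binding protein gene Calb1 1.16 ± 0.10, while Tfap2b had -0.78 ± 0.26. None of these genes passed adjustment over all genes.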
